A study of Homo sapiens with 6 samples.

Results

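The HOX genes were followed in COLO-320DM, an established human colorectal cancer cell line, after its cells had been sorted into CD44-positive and CD44-negative fractions. CD44 is a receptor for hyaluronan that marks stem-like cells in tumours of the colon. The members were taken by gene name, as 38 HOX genes of the HOXA, HOXB, HOXC and HOXD clusters. The rule used no measured value, but the list was made with earlier results of these data known. In the annotation used, 28 of them had a probe set of their own, 44 probe sets in all, out of 19775 genes with one. HOXA3, HOXA4, HOXA5, HOXA6, HOXA7, HOXA9, HOXA10, HOXA11, HOXA13 and HOXD3, 10 in number, had none and are not analysed here, so the HOXA cluster was read through HOXA2 alone. A gene was represented by its probe set with the highest mean. Genes with a mean under 5.12 on the log2 scale, the 30th percentile of all genes, were called dim and not tested. That left 25 HOX genes among 13842 tested genes, as HOXA2, HOXB8 and HOXD12 were dim. The 6 arrays held 3 of each fraction, numbered 01, 02 and 03 in both, and no cells had been treated. Both fractions came from the same cell line, the labels named no separate cultures, and a p-value here reflects the spread among these arrays alone, and that spread may be technical.

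HOX genes encode homeodomain transcription factors that give cells their position along the body axis. They lie in clusters, and their order along the chromosome follows the order in which they are used from head to tail, with low paralog numbers anterior and high numbers posterior. HOX proteins bind DNA together with TALE cofactors such as PBX and MEIS. Polycomb complexes keep the clusters silent, MLL complexes keep them active, and CDX factors activate the posterior genes in the gut. The adult colon keeps a posterior HOX pattern, and many tumours show altered HOX levels.

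Every array had a median intensity between 44.9 and 46.5, and log2 values correlated at 0.986 to 0.996 between arrays. CD44 was higher in the CD44-positive fraction in 3 of 3 same-numbered pairs, by 2.46, 2.83 and 2.12 (log2). Arrays of one number deviated from their group means together, with correlations of 0.465, 0.689 and 0.626. The numbers were therefore taken as pairs, and a fit with the number as a block is given beside the fit without it where it matters. Of 8 colorectal epithelial markers, EPCAM, CDH1 and KRT19 were dim, and EPCAM had a mean of 4.40 with CD44 and 4.87 without, with no overlap of the groups. Among the rest CDX2, an intestinal transcription factor, had a mean log2 level of 11.61 (SD 0.094, n = 3) with CD44 and 11.69 (SD 0.20, n = 3) without. KRT18, a keratin of simple epithelia, had 9.95 (SD 0.18, n = 3) and 10.05 (SD 0.028, n = 3). KRT20, a keratin of differentiated colon epithelium, was at 6.67, 7.23 and 7.02 with CD44 and at 6.33, 6.10 and 6.60 without, again with no overlap. Its difference was 0.63, of the size seen in HOXC6, with an SE of 0.17 without the block and 0.15 with it. The adjusted p in limma with the block was 0.298. KRT8 differed by -0.040 and VIL1 by 0.022. The part of these markers in the HOX differences was not tested.

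Promoter sequences are shown for a few members as context for where their transcripts start. The first belongs to HOXC4 and HOXC5, and in RefSeq HOXC6 has the same gene start, so that transcripts of the 3 genes can overlap. The other 3 belong to the HOXD genes with the greatest mean differences. The sequences are RefSeq's for GRCh38.p14, each 300 bases from 250 before to 50 after the start, all on the plus strand. HOXC4 and HOXC5 lie at chr12:54016638-54016937, HOXD1 at chr2:176188418-176188717, HOXD10 at chr2:176116528-176116827 and HOXD11 at chr2:176107030-176107329. Capitals mark matches to the motifs searched, which are given after the sequences.
HOXC4 and HOXC5: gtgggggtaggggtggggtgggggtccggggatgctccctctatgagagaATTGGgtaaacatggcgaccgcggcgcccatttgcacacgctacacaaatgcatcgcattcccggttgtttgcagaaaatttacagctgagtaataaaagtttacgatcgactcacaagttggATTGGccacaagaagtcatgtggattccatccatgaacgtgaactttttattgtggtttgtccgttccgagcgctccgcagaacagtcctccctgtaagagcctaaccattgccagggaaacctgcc
HOXD1: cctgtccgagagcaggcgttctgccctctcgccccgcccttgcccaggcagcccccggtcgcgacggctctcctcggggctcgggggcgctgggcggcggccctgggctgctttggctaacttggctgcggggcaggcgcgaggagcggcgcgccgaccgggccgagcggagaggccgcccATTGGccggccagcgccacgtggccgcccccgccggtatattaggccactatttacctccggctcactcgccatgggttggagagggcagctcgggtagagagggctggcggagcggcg
HOXD10: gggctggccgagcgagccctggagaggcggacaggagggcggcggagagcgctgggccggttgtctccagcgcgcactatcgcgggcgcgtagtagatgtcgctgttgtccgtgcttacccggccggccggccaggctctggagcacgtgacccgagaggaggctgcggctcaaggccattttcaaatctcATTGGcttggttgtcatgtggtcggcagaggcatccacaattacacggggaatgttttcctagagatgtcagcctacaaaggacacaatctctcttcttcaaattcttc
HOXD11: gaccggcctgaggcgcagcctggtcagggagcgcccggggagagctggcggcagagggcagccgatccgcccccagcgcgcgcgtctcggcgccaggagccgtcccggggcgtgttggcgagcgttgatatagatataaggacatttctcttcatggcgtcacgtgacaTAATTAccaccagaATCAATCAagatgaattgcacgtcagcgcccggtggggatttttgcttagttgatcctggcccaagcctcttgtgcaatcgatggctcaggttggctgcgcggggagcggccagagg

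The motifs were searched on both strands in the 8 distinct promoters found for 9 tested HOX genes and in all 35116 promoters of the table. The CCAAT box (CCAAT) occurred in 6 of the 8, those of HOXB1, HOXC4 with HOXC5, HOXD1, HOXD4, HOXD10 and HOXD13, against 34.6% of all promoters. In the sequences above it begins 69 bases before the start in HOXD1, 59 before in HOXD10, and 200 and 77 before in HOXC4. The HOXD11 promoter held a HOX-PBX motif (TGATTNAT, in 2.82% of promoters) 67 bases before the start. It also held the homeobox core TAATTA (4.84%) 81 bases before the start. The CDX motif TTTATG (10.6%) was found once, in the HOXD8 promoter, and the TATA box TATAAA (11.5%) in that of HOXD13. The TCF/LEF motif CTTTGAT (2.62%) and the retinoid half-site AGGTCA (13.8%) were in none of the 8. CpG dinucleotides numbered 36 in the HOXD1, 23 in the HOXD10, 27 in the HOXD11 and 15 in the HOXC4 promoter, against a median of 14 over all promoters. The median of the 8 was 23.5, and the promoters of HOXD4 (4) and HOXB1 (11) lay below 14. Such matches are a description of letters, and no binding was measured.

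The question put to the arrays was whether HOX expression differed between the CD44 fractions. No single HOX gene passed the test, while the genes as a group lay on the CD44-positive side. On the log2 scale, 23 of 25 tested members had a mean difference above 0 (CD44-positive minus CD44-negative), against 48.9% of all genes tested. HOXB5 was one of the 23 with a difference of 0.00, and under median centring or quantile normalization 22 were above 0. The median difference was 0.16, against -0.0025 over all genes. By pair it was 0.19, 0.27 and 0.090 in pairs 01, 02 and 03. In limma's test 0 of 25 passed at an adjusted p of 0.05, as did 0% of all genes, and with the replicate block 0 of 25 passed against 0.0578% of all genes. CD44 itself had an adjusted p in limma of 0.106 without the block and 0.00176 with it, so the fit without the block missed the sorted gene too. At an unadjusted p under 0.05 limma had 2 HOX genes, HOXC6 and HOXC9, both higher in CD44-positive cells (background 1.24%). With the block there were 9, all higher (background 4.24%), and none lower (background 3.25%). The sign was positive in 3 of 3 pairs for 12 members, against 13.7% of all genes, and negative in 3 of 3 for none, against 14.8%. The groups did not overlap in 3 members, all higher in CD44-positive cells, HOXC6, HOXC8 and HOXC9 (background 2.82%), and in none was the CD44-negative group the higher (background 2.6%). HOXC10 is among the 23, the 12 and the 9 although its CD44-negative mean was under the dim limit. Without it the counts were 22, 11 and 8 of 24. The members had been listed with earlier results of these data known, so these counts carry no test of their own.

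**Figure D1:**
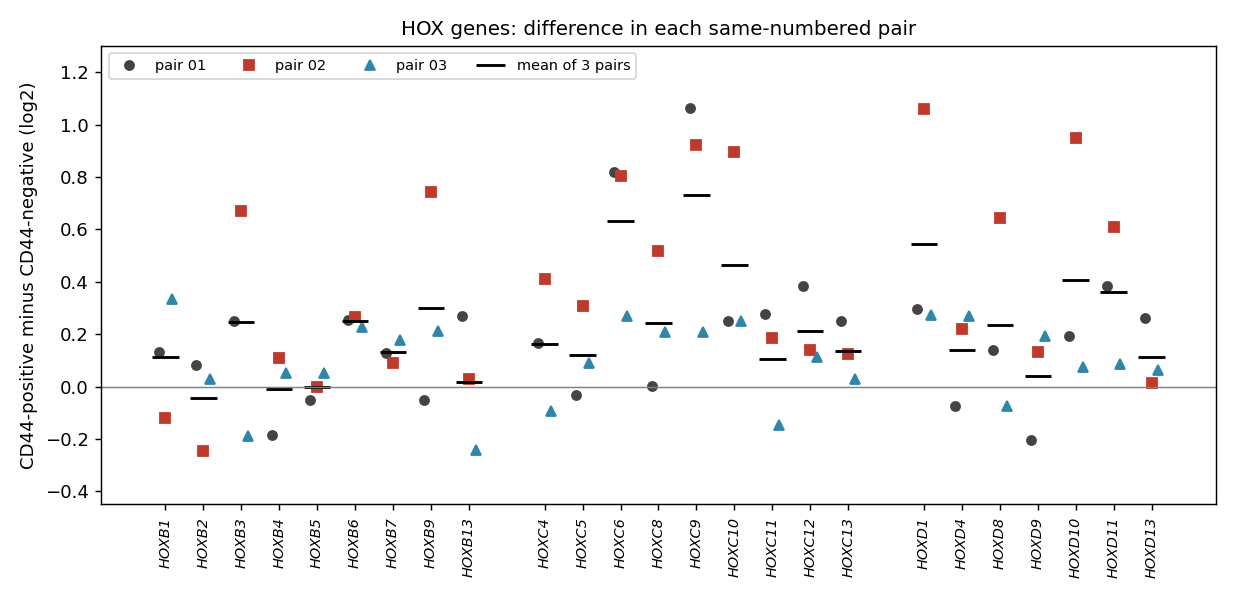
Difference in log2 intensity between CD44-positive and CD44-negative arrays for the 25 tested HOX genes, in order of cluster and paralog number; symbols are the 3 same-numbered pairs and bars their mean. The bars of all 9 HOXC and all 7 HOXD genes lie above 0, and pair 02 (squares) gives the highest values of HOXD1, HOXD8, HOXD10 and HOXD11.

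In the HOXC cluster, on chromosome 12, all 9 tested genes had a mean difference above 0, from 0.11 for HOXC11 to 0.73 for HOXC9, with a median of 0.21. HOXC9, a posterior HOX factor of the trunk, stood at 7.15, 7.17 and 6.92 on CD44-positive arrays 01, 02 and 03 and at 6.09, 6.25 and 6.72 on the CD44-negative arrays. Every CD44-positive array was above every CD44-negative one, with the least room between the arrays numbered 03. The difference was 0.73 ± 0.16 (SE), or 1.66-fold, with a 95% interval from 0.35 to 1.11. Limma's adjusted p was 1.00 without the block and 0.235 with it. Leaving out pair 03, which had its smallest difference (0.21), gave 0.99 with the block (adjusted p = 0.00116 in limma). Dropping the smallest pair can only raise the difference, so this is no support for HOXC9. In that setting 127 of all genes passed, against 8 with all pairs. The same holds for HOXC6 and HOXD11 below, where pair 03 was the smallest too. Without CD44-negative array 01 the difference was 0.60, and the lowest value over the alternatives was 0.56.

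HOXC6, whose product is a homeodomain factor of the thoracic region, stood at 8.56, 9.24 and 8.77 in CD44-positive and at 7.74, 8.44 and 8.50 in CD44-negative cells. The groups were separate, though CD44-positive array 01 lay only just above CD44-negative array 03. Its difference was 0.63 ± 0.24 (SE), or 1.55-fold (95% interval 0.087 to 1.17), with an adjusted p in limma of 1.00 and of 0.167 with the block. With the block it passed under a variance trend with limma's robust option (adjusted p = 0.0220), with array weights (0.0386) and without pair 03 (0.00245). It did not pass with the block alone. Without CD44-negative array 01 its difference was 0.39, and without CD44-positive array 02 it was 0.44. HOXC4 and HOXC5, which share the promoter shown above, differed less, by 0.16 ± 0.14 and 0.12 ± 0.12 (SE). The HOXC6 probe set has the _s_at suffix, given to sets that match several transcripts, so its signal is uncertain as to the gene. The same suffix is on the sets used for HOXB5, HOXB6, HOXC13 and HOXD1, and those of HOXB7 and HOXB9 have the _x_at suffix for possible cross-hybridisation.

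HOXC8 stood at 5.45, 5.74 and 5.52 against 5.44, 5.23 and 5.32. Its groups did not overlap, but pair 01 differed by 0.0029 only, and the difference was 0.24 ± 0.11 (SE), or 0.16 without CD44-positive array 02. HOXC10, a posterior gene of the lumbar region and hindlimb, stood at 5.16, 6.42 and 4.83 against 4.92, 5.52 and 4.58. The arrays numbered 02 were the highest of each group, and the groups overlapped widely. HOXC10 passed the dim limit through these arrays, as its CD44-negative mean was 5.01, under the limit, so its difference of 0.46 ± 0.40 (SE) is approximate. Leaving out 1 array gave -0.0086 without CD44-positive array 02, 0.25 without CD44-negative array 03, 0.72 without CD44-negative array 02 and 0.79 without CD44-positive array 03. The SE was 0.13 with the block (adjusted p = 0.411 in limma).

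HOXC11, HOXC12 and HOXC13, the most posterior HOXC genes, differed less than HOXC6, HOXC9 and HOXC10. They did not lie below the anterior HOXC4 (0.16) and HOXC5 (0.12) as a set. HOXC12 stood at 7.13, 7.36 and 6.79 against 6.75, 7.22 and 6.68, a difference of 0.21 ± 0.18 (SE). HOXC13, which is needed for hair and nails, stood at 8.24, 8.14 and 7.89 against 7.99, 8.02 and 7.86, a difference of 0.13 ± 0.11 (SE). Both were higher in every pair, and in both the groups overlapped. HOXC12 was at 0.080 without CD44-positive array 02, 0.11 without CD44-negative array 03, 0.36 without CD44-positive array 03 and 0.38 without CD44-negative array 02. HOXC13 was at 0.060 without CD44-positive array 01, 0.087 without CD44-negative array 03 and 0.23 without CD44-positive array 03. HOXC11 differed by 0.11 ± 0.11 (SE), with pair values of 0.28, 0.19 and -0.15.

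**Figure D2:**
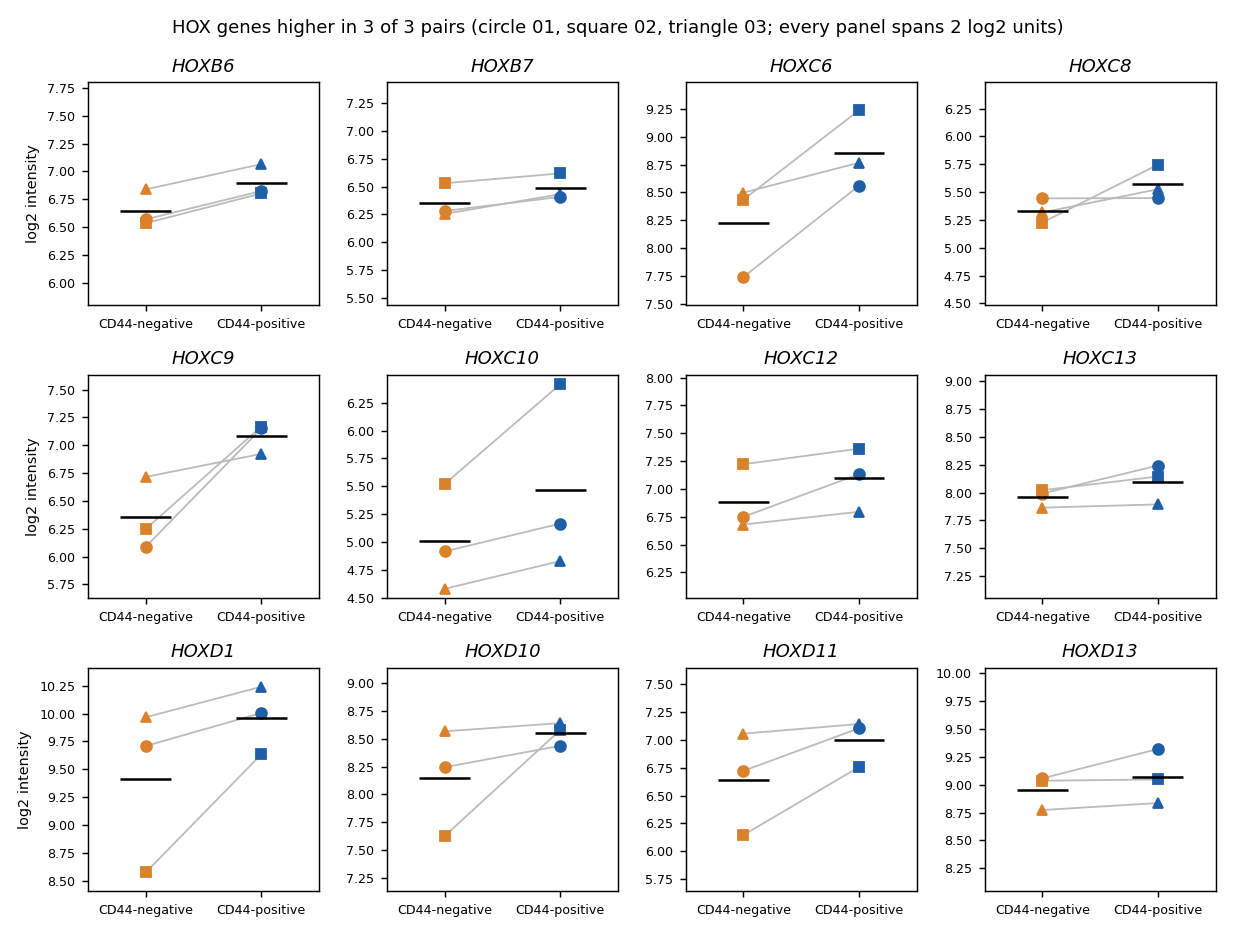
Log2 intensity on each array for the 12 HOX genes that were higher in 3 of 3 pairs, CD44-negative in orange and CD44-positive in blue; grey lines join arrays of one number and bars are group means. Only HOXC6, HOXC8 and HOXC9 have groups that do not overlap, and in HOXD1, HOXD10 and HOXD11 CD44-negative array 02 lies lowest.

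In the HOXD cluster, on chromosome 2, all 7 tested genes had a mean difference above 0, from 0.041 for HOXD9 to 0.54 for HOXD1, with a median of 0.24. HOXD1, the anterior end gene of its cluster, stood at 10.01, 9.63 and 10.24 in CD44-positive and 9.71, 8.57 and 9.97 in CD44-negative cells. CD44-negative array 02 was far below the others, and the remaining CD44-negative arrays lay within the CD44-positive range. The difference was 0.54 ± 0.34 (SE), or 1.46-fold (95% interval -0.23 to 1.32), without the block. With the block the SE was 0.15 and the interval 0.19 to 0.90, not adjusted for the number of genes. The adjusted p in limma with the block was 0.398. Without CD44-negative array 02 the difference was 0.12, and without CD44-negative array 03 it was 0.82.

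HOXD10 and HOXD11, posterior genes that pattern the limb, followed the same arrays. HOXD10 stood at 8.44, 8.58 and 8.64 against 8.25, 7.63 and 8.57, a difference of 0.41 ± 0.21 (SE), and of 0.15 without CD44-negative array 02. HOXD11 stood at 7.10, 6.76 and 7.14 against 6.72, 6.15 and 7.06, a difference of 0.36 ± 0.22 (SE), and of 0.11 without that array. With the block the SE was 0.16 for HOXD10 (adjusted p = 0.615 in limma) and 0.10 for HOXD11 (adjusted p = 0.422). In both genes CD44-negative array 02 was the lowest of the 6 and CD44-negative array 03 lay within the CD44-positive range. HOXD11 passed in limma with the block when pair 03 was left out, at 0.50 (adjusted p = 0.0424). Without CD44-negative array 03 the differences were 0.62 for HOXD10 and 0.57 for HOXD11. Without pair 02 the blocked differences were 0.28 for HOXD1, 0.13 for HOXD10 and 0.23 for HOXD11.

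The other HOXD genes were closer to 0. HOXD8 stood at 7.85, 7.42 and 7.94 against 7.71, 6.78 and 8.01, and its pairs differed in sign. HOXD4 stood at 8.81, 9.38 and 10.50 against 8.89, 9.16 and 10.23, with the arrays numbered 03 far above the others in both fractions. On 3 further probe sets, shared between HOXD3, HOXD4 and a neighbouring transcript, the arrays numbered 02 were the lowest of each group and those numbered 03 the highest. HOXD13, the posterior end gene of the cluster, stood at 9.32, 9.05 and 8.84 against 9.06, 9.04 and 8.77, a difference of 0.11 ± 0.14 (SE). It was -0.014 without CD44-positive array 01, 0.021 without CD44-negative array 03 and 0.23 without CD44-positive array 03. HOXD9 differed by 0.041 ± 0.11 (SE).

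In the HOXB cluster, on chromosome 17, 7 of 9 tested genes had a mean difference above 0, or 6 under median centring or quantile normalization, with a median of 0.11. That median was 0.064 without CD44-positive array 02 and 0.069 without CD44-negative array 01. HOXB6, which acts in the trunk and in blood progenitors, stood at 6.82, 6.80 and 7.07 against 6.57, 6.54 and 6.84. Its pairs agreed closely, at 0.25, 0.27 and 0.23, while the groups overlapped through CD44-negative array 03. The difference was 0.25 ± 0.12 without and ± 0.066 with the block (SE), with a blocked adjusted p of 0.384 in limma. Without CD44-positive array 03 it was 0.17. HOXB7 stood at 6.41, 6.62 and 6.43 against 6.28, 6.53 and 6.25, with pair values of 0.13, 0.088 and 0.18. Its difference of 0.13 was 0.064 without CD44-positive array 02, 0.080 without CD44-negative array 03 and 0.22 without CD44-negative array 02. HOXB9 differed by 0.30 ± 0.16 (SE), with CD44-positive array 02 the highest at 7.04 and a pair 01 value of -0.051.

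The anterior HOXB genes and HOXB13 varied without a common sign. HOXB2 differed by -0.045 ± 0.16, HOXB4 by -0.0078 ± 0.091 and HOXB1 by 0.11 ± 0.11 (SE). HOXB3 differed by 0.24 ± 0.29 (SE), with pair values of 0.25, 0.67 and -0.19. HOXB13, a posterior gene known from distal colon and prostate, stood at 7.56, 7.53 and 7.07 against 7.29, 7.50 and 7.31, a difference of 0.018 ± 0.15 (SE, 95% interval -0.32 to 0.35). The dim members had means of 3.74 for HOXA2, 4.08 for HOXB8 and 3.32 for HOXD12 over the 6 arrays.

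Where a gene had several probe sets they mostly lay on one side. Of the 44 HOX probe sets 37 were above the dim limit, and of these 34 had a mean difference above 0, against 49.3% of all named probe sets above the limit. Of the 37, 18 were higher in 3 of 3 pairs (background 14.2%) and 4 had groups without overlap (background 2.89%). In 8 of 9 genes with several probe sets above the limit all had the same sign, HOXD9 being the exception at 0.041 and -0.020. The 3 probe sets of HOXD10 gave 0.31, 0.41 and 0.25, those of HOXD13 0.10, 0.14 and 0.11, and the 2 of HOXB9 0.30 and 0.35. HOXB7 disagreed in size. Its brightest probe set, which carries the cross-hybridisation suffix, gave 0.13 and the other 2 gave 0.56 and 0.47. The set with 0.56 had a CD44-negative mean of 4.96, under the dim limit, as the HOXC10 set did. Without these 2 sets, 32 of 35 were above 0 and 16 were higher in 3 of 3 pairs. HOXB5 gave 0.20 on one and 0.00 on the other. The second probe set of HOXD1 was dim, with a mean of 3.00, and gave -0.10.

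The clusters did not follow the same arrays. CD44-positive array 02 was the highest of the 6 for 7 of 9 HOXC genes and for 0 of 7 HOXD genes. For HOXD genes CD44-positive array 03 was the highest in 5 of 7 and CD44-negative array 02 the lowest in 4 of 7. The median deviation of the HOXC genes from their own means was 0.29 on CD44-positive array 02 and -0.24 on CD44-negative array 01. For HOXD genes it was -0.68 on CD44-negative array 02 and 0.32 on CD44-positive array 03, while CD44-negative array 03 was at 0.24, above CD44-positive arrays 01 (0.23) and 02 (-0.054). The HOXB medians ran from -0.14 on CD44-negative array 01 to 0.13 on CD44-positive array 03. Without CD44-negative array 02 the HOXD median was 0.11 in place of 0.24, with 6 of 7 above 0, whereas it was 0.54 without CD44-negative array 03 and 0.39 without CD44-positive array 02. Without CD44-positive array 02 the HOXC median was 0.086 in place of 0.21, with 8 of 9 above 0.

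**Figure D3:**
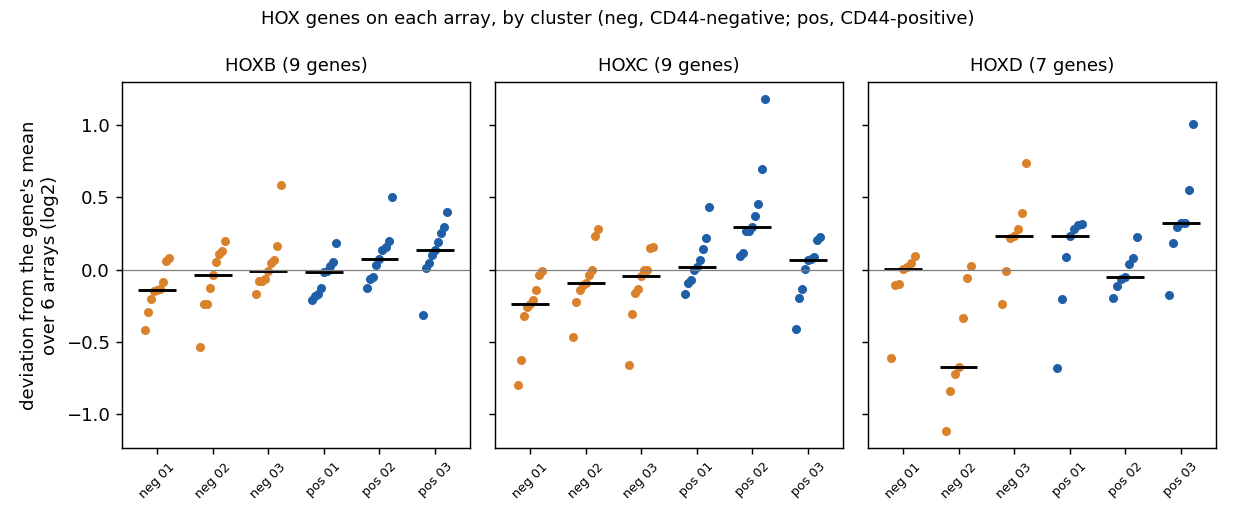
Deviation of each tested HOX gene from its own mean over the 6 arrays (log2), by array and cluster; points are genes and bars are medians. CD44-negative array 02 lies low for HOXD, with a median of -0.68, and CD44-positive array 02 lies high for HOXC, with a median of 0.29.

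HOX levels also differed between the replicate numbers. The difference between the highest and the lowest mean of the 3 numbers had a median of 0.29 over the HOX genes, against 0.21 over all genes. A range over 3 means tends to exceed a difference of 2 means, and 22 of 25 HOX genes had the range above the CD44 difference in size. The size of the CD44 difference had a median of 0.16 over the HOX genes and 0.060 over all genes. In an F test of the number in limma's blocked fit, added after these values had been seen, 7 of 25 HOX genes passed at an adjusted p of 0.05, against 10.3% of all genes. They were HOXC6, HOXC10, HOXC12, HOXD1, HOXD4, HOXD8 and HOXD11. HOXD4 ran from 8.85 in number 01 over 9.27 in 02 to 10.37 in 03 (adjusted p = 0.00377), and HOXC10 was at 5.04, 5.97 and 4.70 (adjusted p = 0.0125). HOXD1 was at 9.86, 9.10 and 10.10 and HOXD11 at 6.91, 6.45 and 7.10, both lowest in number 02. HOXC9 was at 6.62, 6.71 and 6.82, so that in this gene the CD44 difference exceeded the range over numbers, 0.20. What the numbers stand for is not given in the labels. Without the arrays numbered 02, 3 HOX genes passed this F test, HOXB2, HOXB3 and HOXD4, against 4.88% of all genes in the same fit.

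**Figure D4:**
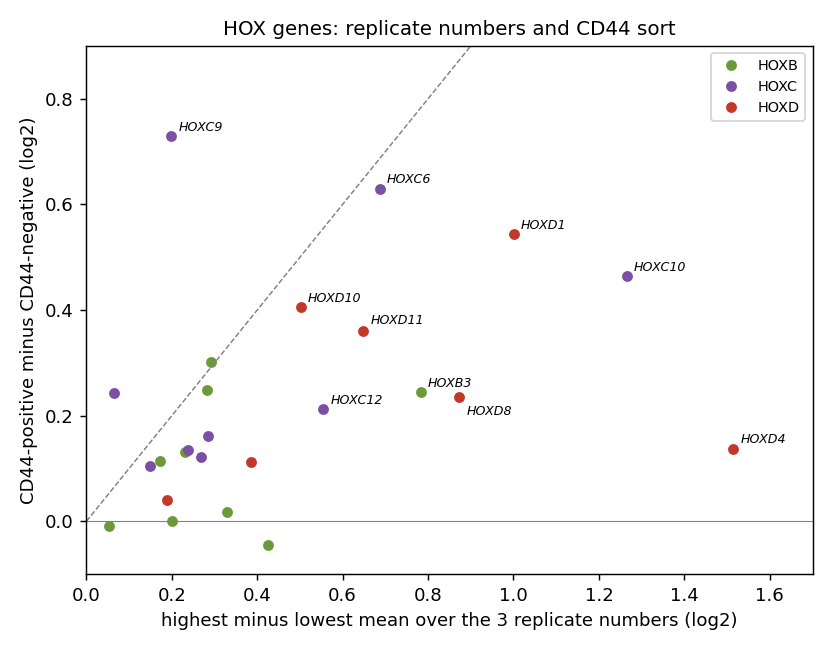
CD44 difference of each tested HOX gene against the range of its mean over the replicate numbers 01, 02 and 03 (both log2); points below the dashed line varied more between numbers than between fractions. HOXC9 lies far above the line, at 0.73 against 0.20, and HOXD4 far below it, at 0.14 against 1.51.

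Genes that lie in and beside the clusters were read from a list. Of 11 non-coding genes of the clusters with a probe set, 8 were tested, 5 had a mean difference above 0, none passed with or without the block, and the median was 0.029. HAGLR, a non-coding RNA on the other strand beside HOXD1, has 4 starts in the RefSeq table, one of them 96 bases before that of HOXD1, inside the promoter shown above. It stood at 9.10, 8.89 and 9.27 against 8.83, 8.39 and 9.18, lowest on CD44-negative array 02 as HOXD1 was, with pair values of 0.28, 0.50 and 0.086 and a difference of 0.29 ± 0.19 (SE). With the block the SE of HAGLR was 0.090 (adjusted p = 0.489 in limma). Signal of the overlapping transcripts was not told apart here. HOTAIR, a long non-coding RNA from the HOXC cluster, differed by 0.19 ± 0.25 (SE), with pair values of 0.50, 0.21 and -0.15. The nearest genes outside the clusters, 5 on each side apart from HOTTIP, which was counted with the non-coding genes, gave a median of 0.016 over 28 tested, with 16 above 0 and none passing with or without the block.

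Lists of partners and regulators of HOX genes were read in the same way. Of the TALE cofactors 7 were tested, 5 had a difference above 0 and the median was 0.025. PKNOX1 differed by 0.18 ± 0.11 (SE), with 0.17, 0.22 and 0.15 in the pairs, MEIS3 by 0.13 and PKNOX2 by 0.12. MEIS1 (-0.013), MEIS2 (0.024), PBX2 (-0.010) and PBX3 (0.025) were within 0.03 of 0, and PBX4 was dim. Among the ParaHox genes, the sister cluster of the HOX genes, CDX2 differed by -0.077 ± 0.12, CDX1 by 0.017 ± 0.14, CDX4 by -0.19 ± 0.11, with the CD44-negative arrays all above the CD44-positive ones, and GSX2 by -0.24 ± 0.14 (SE), and PDX1 and GSX1 were dim. The ParaHox median was -0.13 over 4 tested, with 1 above 0 and pair medians of -0.15, -0.089 and -0.067. The dim PDX1 (0.096) and GSX1 (0.075) lay on the other side of 0, and CDX4, with a mean of 5.35, was near the dim limit. Polycomb genes had a median of 0.018 over 22 tested, 12 above 0, and genes of MLL complexes and their activators one of -0.022 over 19, 7 above 0. No gene of these lists passed limma's test with or without the block.

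Markers of other cell types were set beside the HOX genes. Of 12 fibroblast markers 6 were tested, 3 with a difference above 0, and their median was 0.0078. The log2 of their summed intensity ranged from 10.51 to 11.82 in CD44-positive and from 10.18 to 11.16 in CD44-negative arrays, and was higher with CD44 in 3 of 3 pairs. That sum was mostly COL3A1, the brightest of the 6, at 11.63, 10.02 and 11.60 with CD44 and 10.61, 9.45 and 10.85 without. It is therefore no separate result from COL3A1. COL3A1, a fibrillar collagen, was higher in 3 of 3 pairs, by 1.02, 0.57 and 0.75 (adjusted p in limma with the block 0.0526). COL1A2 was higher in 3 of 3 pairs too, by 0.31 ± 0.094 (SE), with a CD44-negative mean under the dim limit. COL1A1 lay the other way in 3 of 3 pairs, with a difference of -0.23 ± 0.11 (SE) and no overlap of the groups. PDGFRB differed by -0.13, DCN by -0.036 and THY1 by 0.052. LUM, the matrix proteoglycan lumican, was dim but stood at 5.63, 4.18 and 3.84 in CD44-positive and 2.36, 2.79 and 2.44 in CD44-negative cells. PDGFRA, FAP, POSTN, DPT and COL6A3 were dim in means. Leukocyte markers had 1 of 5 tested above 0, with summed levels of 8.52 to 8.60 and 8.55 to 8.70. Endothelial markers had 3 of 4 above 0, with 7.76 to 7.96 and 7.79 to 7.91, and CDH5, KDR, TIE1 and EMCN were dim. Of 8 neuroendocrine markers 7 had a probe set. The 3 tested were all above 0, with summed levels of 7.14 to 7.73 and 6.94 to 7.56. The 4 dim ones differed by -0.021 (CHGA), -0.073 (INSM1), -0.090 (SCG2) and 0.17 (CHGB). One of the 3 tested, ENO2, had a CD44-negative mean of 4.93, under the dim limit. The part of these genes in the HOX differences was not tested. In bulk arrays more cells of a kind and more RNA per cell cannot be told apart.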

How the data were processed

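Biotinylated cRNA from total RNA of 6 sorted COLO-320DM samples was read on Affymetrix arrays, per the labels. The deposited intensity values had been made by the authors with RMA, a summary of the probes of each set, per the submitters' processing notes. Its version and the genome build are not given in the sources used here. RMA tends to compress differences near the background. The values were linear, so log2 was taken with no pseudocount.

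Of 54675 probe sets 41091 had 1 gene in the platform annotation, 1801 several and 11721 none, and 62 were controls. Genes were tested with limma 3.58.1 under R 4.3.3 by a two-sided test, and p-values were adjusted by Benjamini-Hochberg over all 13842 genes, without and with the replicate number as a block. The labels do not say what the numbers share, so the pairing comes from the data. Errors are the SD over 3 arrays or limma's SE, which comes from the fit without the block unless the block is named. The fits were first tested on simulated data.

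The members and lists were chosen with earlier results of these data known. Every probe set of a member was read out, and a member was given in full where its groups did not overlap or its sign was the same in 3 of 3 pairs. CDX, cofactor and passing genes of other lists were to be named. HAGLR, HOTAIR and the marker genes given with values were picked after their values were seen. Alternatives were median centring, quantile normalization, no or a 50th percentile filter, other probe set rules, array weights and leaving out arrays. A further one was a variance trend together with limma's robust option. Figures were drawn with matplotlib 3.10.9 under Python 3.11.15, with pandas 2.3.3 and numpy 2.4.6.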

Additional observations from a re-analysis of the deposited data

How the results depend on the processing

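The median difference of the HOX genes was above 0 under all 28 alternatives. With all arrays kept at equal weight, neither the block nor the variance trend with the robust option can change a mean difference. Those settings repeat the median of their counterpart and are no separate support. The median difference lay between 0.11 without replicate 2 and 0.26 without replicate 3, both with the replicate block, against 0.16 as reported. It moved by more than the SD of the pair medians, 0.089, under the latter. Without the block no HOX gene passed under any of 15 settings. With the replicate block HOX genes passed under 3 of 13 settings. These were 1 (HOXC6) with the variance trend and robust option or with array weights and 3 without replicate 3, against 0 without replicate 1 or 2. The block changed no call of a HOX gene by itself. The count of all genes passing was 0 as reported. It was 2 without a dim filter and 1 with array weights, every probe set or probe sets without suffixes, and 0 to 1 when 1 array was left out. With the replicate block it was 8, and with a further change 18 (median centring), 4 (quantile normalization), 5 (no dim filter), 16 (50th percentile), 6 (mean of probe sets), 20 (probe sets without suffixes), 16 (every probe set), 78 (variance trend and robust option) and 43 (array weights). Leaving out a pair gave 10 (replicate 1), 63 (replicate 2) and 127 (replicate 3). Leaving out 1 array gave HOXD13 from -0.014 (without CD44-positive replicate 1) to 0.23 and HOXC10 from -0.0086 (without CD44-positive replicate 2) to 0.79. The count of HOX genes that differed between numbers was 7 as reported, 2 with no dim filter, and 3 to 7 when a number was left out. Under the other alternatives with all arrays it ran from 5 (probe sets without suffixes) to 9 (every probe set). The share over all genes is given above only for the reported fit and without the arrays numbered 02. The other counts are therefore not set against a background. The cause of these changes was not tested. Signal near background limits HOXC10, HOXC8, HOXB1 and HOXB2, whose levels lay near the dim limit, and the number of arrays limits every value.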
